A study of Homo sapiens with 12 samples.

Results

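The genes described here are 49 listed genes of DNA replication and the G1/S transition, taken from a list of names by function, drawn up with earlier results of these data known. They comprise 11 genes of origin recognition and licensing, 8 of helicase activation, 9 of the polymerases and primase, 8 of the sliding clamp, clamp loader and Okazaki fragment processing, 3 of single-strand DNA binding, 4 of nucleotide synthesis and 6 of G1/S control. All 49 were found among the 16172 genes of the table, and all 49 passed the minimum mean of 1 TPM (abundance of a transcript per length, as a share of all transcripts of the library) that left 10605 genes for testing. Gene expression was measured by RNA sequencing of poly(A) RNA from H1299, an established human non-small-cell lung cancer line. The groups, with 3 libraries each, were polysomal RNA and input RNA of siEIF3G cells, and polysomal RNA and input RNA of siCtrl cells. The siEIF3G cells received an equimolar mix of 2 siRNAs against EIF3G, a subunit of the translation initiation factor eIF3, and the siCtrl cells received a control siRNA. Both were lysed 72 h after transfection. Input was 10% of the lysate, and polysomal RNA, which carries several ribosomes per mRNA, was collected from a sucrose gradient of 10% to 50%. All libraries come from 1 cell line, and separate cultures are not stated, so the spread behind each p-value may be technical.

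Before S phase, the origin recognition complex (ORC) with CDC6 and CDT1 loads the MCM2 to MCM7 hexamer, the replicative helicase, onto DNA; this step is called licensing. CDC7 with DBF4 and the cyclin-dependent kinases then turn the loaded hexamer into an active helicase with CDC45 and the GINS complex, and polymerases copy both strands behind it. Many of these genes are transcribed at the G1/S boundary under E2F factors, which are held in check by the RB protein until CDK4 with D-type cyclins and CDK2 with E-type cyclins phosphorylate it. In cultured cancer lines these mRNAs are therefore widely used as a mark of cycling cells. In RNA from a whole culture, fewer cells in S phase and less RNA per cell cannot be told apart.

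The promoters show the feature that these genes are best known for. Of the 49 genes, 40 have an entry in the RefSeq promoter table (GRCh38.p14), which holds 250 bases before and 50 bases after each annotated start. Letters of the E2F site (TTTCCCGC, TTTCGCGC, TTTGCCGC or TTTGGCGC, either strand) were found in 18 of the 40, or 45%, against 516 of the 8722 promoters of tested genes, or 5.92%. The CCAAT box letters were in 22 of the 40 (55%), against 37.4% of the 8722. The letters TTTGAA or TTCGAA of the cell cycle homology region, known from late cell cycle genes, were in 3 of the 40 (7.5%), against 10.3%. In 13 of the 40 an E2F match lay wholly upstream of the start. The 7 windows below are each 60 bases, 5′ to 3′ on the gene's strand. They belong to genes given by library below that had such an upstream match, so the match was part of the choice. Other genes given by library had no E2F match in their promoters and are not shown. Among them are TK1, RRM1, RRM2, RFC1, RPA1, POLD1, POLD2 and CDK4. Capitals mark the E2F letters on either strand, overlapping matches running together.
CDT1 (chr16:88803728-88803787, plus strand): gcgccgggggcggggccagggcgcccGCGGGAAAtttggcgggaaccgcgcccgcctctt
MCM3 (chr6:52284883-52284942, minus strand): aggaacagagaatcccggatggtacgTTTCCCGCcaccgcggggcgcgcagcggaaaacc
MCM6 (chr2:135876496-135876555, minus strand): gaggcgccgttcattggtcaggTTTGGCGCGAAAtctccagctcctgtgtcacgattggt
MCM7 (chr7:100101398-100101457, minus strand): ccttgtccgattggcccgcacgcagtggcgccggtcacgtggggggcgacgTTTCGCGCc
POLA1 (chrX:24693755-24693814, plus strand): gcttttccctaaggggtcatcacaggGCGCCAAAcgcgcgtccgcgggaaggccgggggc
PCNA (chr20:5126648-5126707, minus strand): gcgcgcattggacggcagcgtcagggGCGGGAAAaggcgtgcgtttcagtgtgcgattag
E2F1 (chr20:33686386-33686445, minus strand): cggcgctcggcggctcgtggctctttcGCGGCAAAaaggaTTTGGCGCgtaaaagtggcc
The MCM6, MCM7 and PCNA windows also hold attgg, the CCAAT letters on the opposite strand. A match of letters is a description of these windows and not a measurement of binding.

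The targeted gene followed its labels. EIF3G had 143, 132 and 69.2 TPM in siEIF3G polysomal RNA, against 1680, 1916 and 1803 TPM in siCtrl polysomal RNA. It had 60.7, 84.7 and 47.3 TPM in siEIF3G input, against 1158, 1092 and 878 TPM in siCtrl input. The limma log2 differences were -4.02 in polysomal RNA (adjusted p = 3.76e-05) and -4.03 in input RNA (adjusted p = 3.71e-05). The keratins KRT8 and KRT18 and the mesenchymal VIM reached at least 107.6, 435.3 and 265 TPM in all libraries, whereas the epithelial markers EPCAM and CDH1 stayed at or under 0.44 and 0.04 TPM. Depth is unknown, since TPM keep no read counts.

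In 3 libraries, the profile over all tested genes correlated more with the libraries of the opposite fraction, same siRNA, than with its own group. They are siEIF3G polysomal 3 (mean Pearson correlation across genes 0.953 with the other fraction and 0.949 with its own group), siEIF3G input 2 (0.958 and 0.928) and siCtrl input 1 (0.957 and 0.922). The replication genes were carried along. In siCtrl input 1, 43 of the 49 lay below both other libraries of the group, against 82.5% of all tested genes. In siEIF3G input 2 the count was 37 of 49, against 63.1% of all tested genes. In siEIF3G polysomal 3, 30 of 49 lay above both others, against 60.8%. From the labels, a mix-up of these libraries between fractions cannot be told apart from a spread within groups. MTRNR2L2, a nuclear gene that resembles the mitochondrial large rRNA, ran as labelled in all 12 libraries, at 5.41 to 13.1 TPM in polysomal RNA and 1258 to 2735 TPM in input. Results are also given without these 3 libraries, and with each library's position along the main axis of deviation from the group means (78.0% of the variance within groups) as a covariate, called the axis term. That axis was computed from these same libraries, so its p-values are too small.

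**Figure D1:**
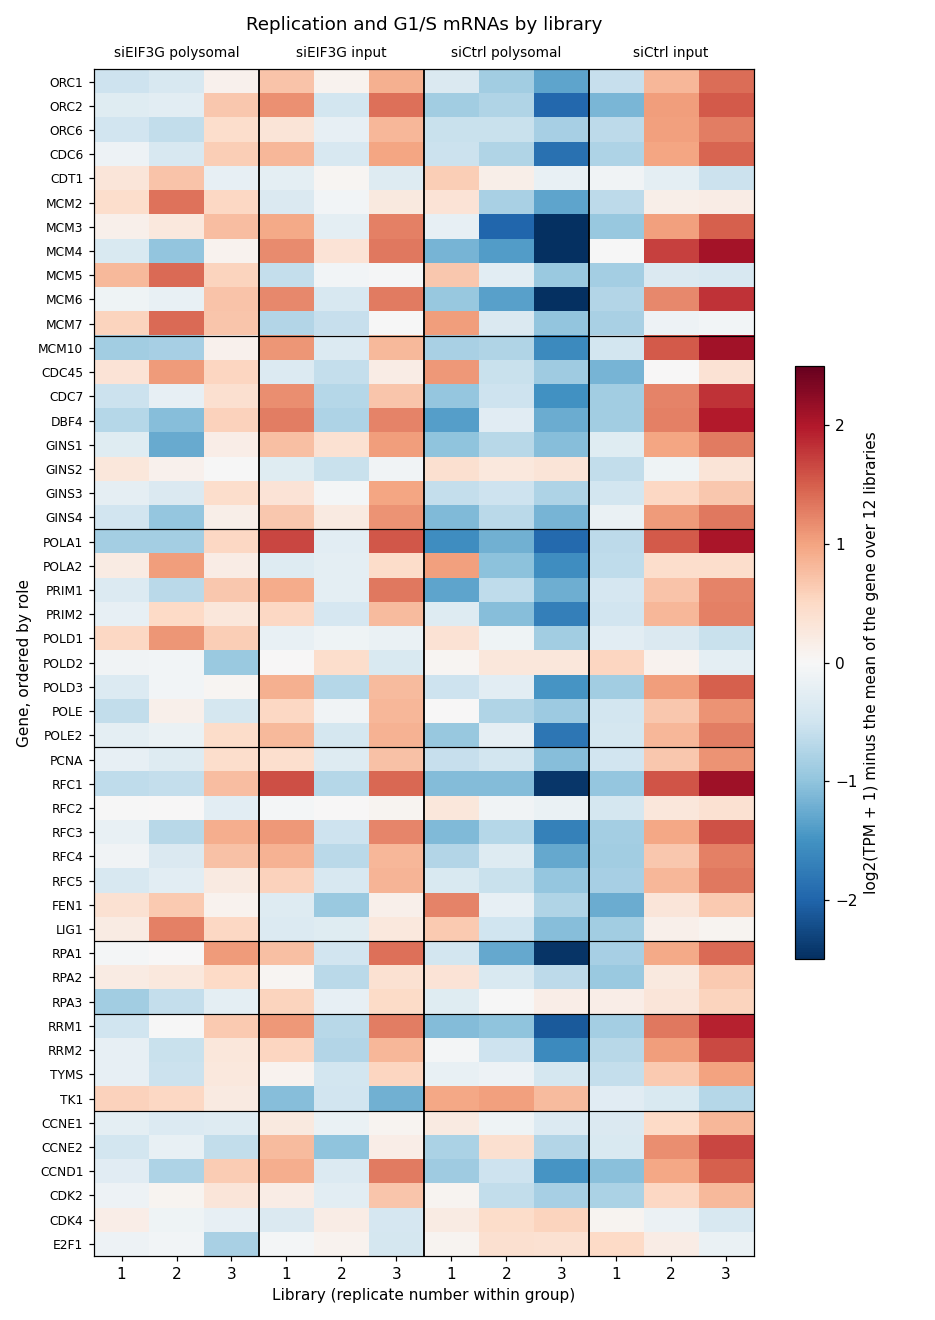
Level of each of the 49 mRNAs in each of the 12 libraries, as log2(TPM + 1) minus the gene's mean over the 12 libraries (colour); rows run by role and columns by group. Most rows are red in siCtrl input 2 and 3 and in siEIF3G input 1 and 3 and blue in siCtrl polysomal 3, whereas TK1 is red in all 6 polysomal libraries.

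Levels spanned more than 2 orders of magnitude. Averaged over the 12 libraries, MCM7 (591 TPM), POLD2 (573 TPM), TK1 (549 TPM) and CDK4 (481 TPM) were the most abundant, and MCM10 was the least, at 4.32 TPM. Those 4 together made up between 34.4% and 70.7% of the members' summed TPM in a library. The summed level of the 49 mRNAs was 4555 ± 534 TPM in siEIF3G polysomal RNA, 3624 ± 291 TPM in siEIF3G input, 4181 ± 760 TPM in siCtrl polysomal RNA and 4059 ± 779 TPM in siCtrl input (SD, n = 3 libraries each). The siEIF3G polysomal libraries (4303, 5168 and 4194 TPM) all lay above the siEIF3G input libraries (3515, 3404 and 3954 TPM), while the libraries of siCtrl polysomal RNA and siCtrl input overlapped. The sum hides opposite patterns, since it is carried by the few abundant mRNAs.

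In input RNA, no replication mRNA differed past the threshold between siEIF3G and siCtrl cells. Their log2 differences between siEIF3G and siCtrl ran from -0.84 (CCNE2) to 0.30 (MCM5). Of these, 17 were above 0 (34.7%, against 42.95% of all tested genes) and 32 below. None of the 49 passed an adjusted p of 0.05 in limma, where 0.0189% of all tested genes did, and none had an unadjusted p under 0.05, against 1.36% of all tested genes. The median was -0.07, beside -0.05 over all tested genes. The direction rested on single libraries, for the members as for all tested genes. Without siCtrl input 3, 41 of 49 were above 0 (median 0.22), beside 73.05% of all tested genes (median 0.22). There were 35 without siEIF3G input 2 (beside 69%) and 31 without siCtrl input 2 (beside 59.59%). Only 5 were above 0 without siCtrl input 1 (median -0.60), beside 16.63% of all tested genes (median -0.39). Without siEIF3G input 3 there were also 5, beside 24.89%. With the total computed without ribosomal protein genes 28 were above 0, beside 57.11% of all tested genes. Without the 3 libraries that stood apart 6 were, beside 24.68%, with a median of -0.26 beside -0.20 over all tested genes.

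POLD1, the catalytic subunit of DNA polymerase delta, was the member whose input groups did not overlap. It had 55.6, 59.1 and 56.4 TPM in siEIF3G input, against 52.8, 49.4 and 43.0 TPM in siCtrl input, a log2 difference of 0.24 (SE 0.31, adjusted p = 1). Such a separation upwards was seen in 1.88% of all tested genes, and downwards, where no member had it, in 1.8%. MCM5, a helicase subunit, had 71.6, 103.6 and 107 TPM in siEIF3G input, against 60.1, 84.5 and 82.3 TPM in siCtrl input. ORC2, which binds origins, had 22.2, 6.62 and 26.2 TPM in siEIF3G input, against 3.78, 20.6 and 29.3 TPM in siCtrl input; the lowest library of each group is one of those that stood apart.

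Among members with a mean of at least 5 TPM, CCNE2, RRM2 and TK1 had the lowest differences in input RNA; below that level, MCM10 was at -0.53. CCNE2, cyclin E2, the partner of CDK2, had 8.32, 1.67 and 5.03 TPM in siEIF3G input, against 3.14, 11.1 and 16.2 TPM in siCtrl input (log2 difference -0.84, SE 0.59, adjusted p = 1). RRM2, the small subunit of ribonucleotide reductase, had 95.3, 39.4 and 118 TPM in siEIF3G input, against 40.3, 137 and 209.9 TPM in siCtrl input (log2 difference -0.46, SE 0.59). TK1, the thymidine kinase of the salvage pathway, had 231, 348 and 210 TPM in siEIF3G input, against 394, 370.3 and 294 TPM in siCtrl input (log2 difference -0.45, SE 0.23, adjusted p = 1). The groups overlapped for all 3 genes, although each of the 4 nucleotide synthesis mRNAs had a negative difference. The proliferation markers TOP2A (26.9 ± 17.3 TPM in siEIF3G input and 48.0 ± 36.2 TPM in siCtrl input) and MKI67 (5.86 ± 5.52 TPM and 14.2 ± 11.7 TPM in the same order) overlapped between groups as well (SD, n = 3 libraries each). Their part in the results was not tested.

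**Figure D2:**
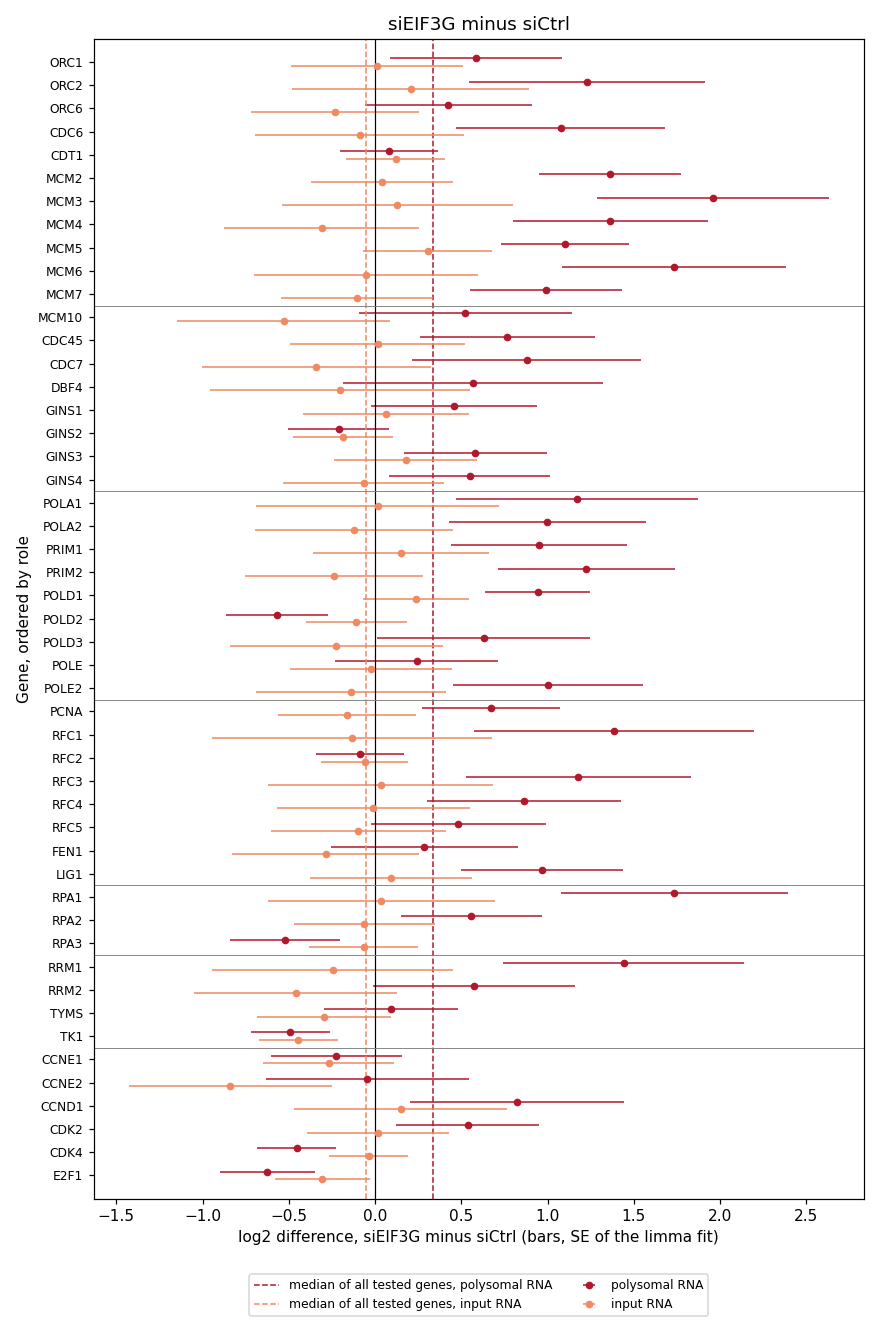
Log2 difference on the log2(TPM + 1) scale between siEIF3G and siCtrl for each of the 49 genes, in polysomal RNA (dark red) and input RNA (orange), with bars for the SE of the limma fit and dashed lines at the medians of all tested genes (0.33 in polysomal RNA and -0.05 in input RNA). The MCM2 to MCM7 points in polysomal RNA lie between 0.99 and 1.96, while input points cluster near 0.

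In polysomal RNA the picture by role was uneven. The 11 origin and licensing mRNAs all had positive log2 differences between siEIF3G and siCtrl, from 0.08 (CDT1) to 1.96 (MCM3), with a median of 1.10 beside 0.33 over all tested genes; with size factors 9 of the 11 were positive, CDT1 and ORC6 being negative. The 6 genes of G1/S control had a median of -0.14. Over all 49 genes 40 differences were positive (81.6%, against 72.65% of all tested genes). Their median was 0.63, or 0.29 above that of all tested genes. Size factors shifted the median of all genes to -0.03, with 48.05% positive. They left 34 of the 49 positive, with the members' median 0.27 above that of all genes. Quantile normalization left 38 positive, beside 50.91% of all tested genes, with the members' median 0.36 above that of all genes.

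No single member passed the threshold in polysomal RNA: the limma adjusted p of all 49 genes was at least 0.65, and 0.0189% of all tested genes passed. At an unadjusted p under 0.05 there were 10 members (20.4%), against 6.69% of all tested genes. These were MCM2, MCM3, MCM4, MCM5, MCM6, MCM7, PRIM2, POLD1 and RPA1 on the positive side and E2F1 on the negative side. The count was 1 without siCtrl polysomal 3, where 143 genes in all had such a p, 4 without siEIF3G polysomal 3 (287 genes in all) and 19 without siCtrl input 1 (1461 genes in all), which enters through the shared spread. Without the 3 libraries that stood apart the count was 16 of 49 (32.7%), against 14.4% of all tested genes, and still none passed the adjusted threshold. With the axis term, 25 members were called higher in siEIF3G (51%, against 33% of all tested genes) and 3 lower (6.12%, against 3.38%). Groups did not overlap upwards for 15 members (30.6%), where 21.6% of all tested genes had this separation, and downwards for 4 (8.16%, against 7.61%).

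The MCM2 to MCM7 hexamer subunits lay higher in siEIF3G polysomal RNA, with 4 of the 6 apart between groups. MCM3 had 32.8, 36.03 and 52.2 TPM in siEIF3G polysomal RNA, against 25.96, 6.84 and 4.39 TPM in siCtrl polysomal RNA (log2 difference 1.96, SE 0.67, adjusted p = 0.65). MCM6 had 17.6, 16.8 and 31.8 TPM, against 9.39, 6.87 and 2.60 TPM in siCtrl (log2 difference 1.73, SE 0.65). All 3 siEIF3G libraries lay above all 3 siCtrl libraries for both genes. MCM4 had 23.4, 15.1 and 32.9 TPM in siEIF3G polysomal RNA, against 13.2, 11.1 and 3.55 TPM in siCtrl polysomal RNA (log2 difference 1.36, SE 0.57), again with no overlap. MCM2 had 122, 230.3 and 128 TPM in siEIF3G polysomal RNA, against 113, 50.4 and 35.4 TPM in siCtrl polysomal RNA (log2 difference 1.36, SE 0.41), where the highest siCtrl library came close to the lowest siEIF3G library. Without the 3 libraries that stood apart, the differences were 1.76 for MCM3, 1.45 for MCM6, 1.11 for MCM4 and 1.49 for MCM2, with adjusted p-values from 0.19 to 0.29.

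MCM5 and MCM7 had higher levels and overlapping groups. MCM5 had 192, 291 and 161 TPM in siEIF3G polysomal RNA, against 174, 90.5 and 56.9 TPM in siCtrl polysomal RNA (log2 difference 1.10, SE 0.37). MCM7 had 753, 1382 and 828 TPM in siEIF3G polysomal RNA, against 1065, 399 and 258 TPM in siCtrl polysomal RNA (log2 difference 0.99, SE 0.44). Library siCtrl polysomal 1 was the highest of its group for all 6 MCM subunits. Among the loaders, ORC2 had 7.52, 7.74 and 15.9 TPM in siEIF3G polysomal RNA, against 4.77, 5.29 and 1.70 TPM in siCtrl polysomal RNA (log2 difference 1.23, SE 0.69), with no overlap. CDT1, which brings the hexamer to origins, had 183, 244 and 128 TPM in siEIF3G polysomal RNA, against 228, 164 and 129 TPM in siCtrl polysomal RNA (log2 difference 0.08, SE 0.29).

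**Figure D3:**
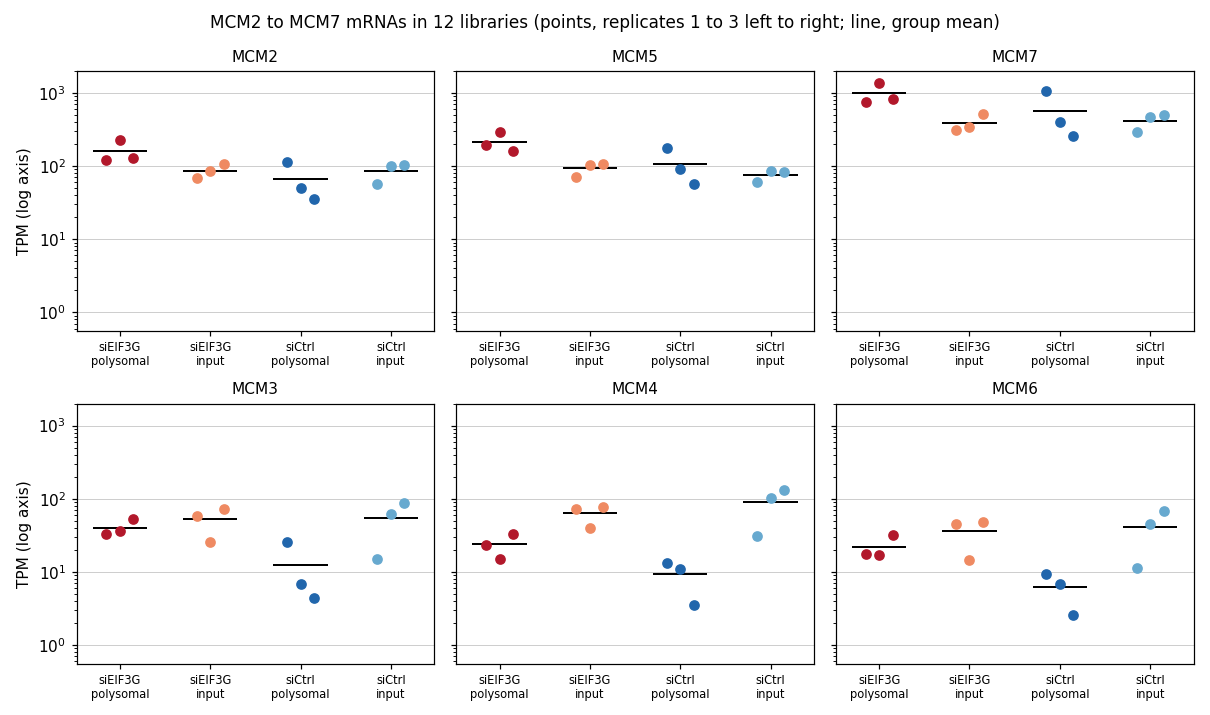
TPM (log axis) of the 6 MCM helicase subunit mRNAs in each library, by group, with a line at the group mean. MCM3, MCM4 and MCM6 are lowest in siCtrl polysomal RNA (means of 12.4, 9.28 and 6.29 TPM), whereas MCM2, MCM5 and MCM7 are highest in siEIF3G polysomal RNA (means of 160, 215 and 988 TPM).

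The fork enzymes spread more widely. CDC45, the helicase cofactor, had 47.2, 78.6 and 54.3 TPM in siEIF3G polysomal RNA, against 79.6, 24.9 and 19.6 TPM in siCtrl polysomal RNA (log2 difference 0.77, SE 0.51). POLD1 had 91.1, 138 and 97.4 TPM in siEIF3G polysomal RNA, against 82.1, 59.2 and 34.4 TPM in siCtrl polysomal RNA (log2 difference 0.94, SE 0.31). POLA1, the catalytic subunit of the priming polymerase, had 1.67, 1.64 and 5.83 TPM in siEIF3G polysomal RNA, against 0.64, 1.08 and 0.24 TPM in siCtrl polysomal RNA (log2 difference 1.17, SE 0.70). Groups did not overlap for POLD1 and POLA1 and overlapped for CDC45. RFC1, the large subunit of the clamp loader, had 7.55, 7.76 and 21.6 TPM in siEIF3G polysomal RNA, against 5.25, 5.22 and 1.45 TPM in siCtrl polysomal RNA (log2 difference 1.38, SE 0.81). The clamp itself, PCNA, had 129.9, 120.2 and 204 TPM, against 100.4, 109 and 71.4 TPM in siCtrl (log2 difference 0.67, SE 0.40). Neither RFC1 nor PCNA overlapped between groups, but for both the highest value came from siEIF3G polysomal 3. Without the 3 libraries that stood apart the differences were 0.92 for RFC1 and 0.44 for PCNA.

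The members not given by library were spread in the same way in polysomal RNA. Among the licensing factors, CDC6, which loads the hexamer with CDT1, was at 1.08 (SE 0.60) with no overlap, and the origin recognition subunits ORC1 and ORC6 were at 0.58 and 0.43 with overlap. In helicase activation, the kinase CDC7 was at 0.88, its activator DBF4 at 0.57 and MCM10, a scaffold of the active helicase, at 0.52. The GINS subunits were at 0.46 (GINS1), -0.21 (GINS2), 0.58 (GINS3) and 0.55 (GINS4), and of these 7 genes GINS3 did not overlap between groups. The primase subunits PRIM1 and PRIM2 were at 0.95 and 1.23, and POLA2, the accessory subunit of the priming polymerase, was at 1.00 (SE 0.57). Of these, PRIM2 did not overlap between groups. POLD3, an accessory subunit of polymerase delta, was at 0.63, and the polymerase epsilon subunits POLE and POLE2 were at 0.24 and 1.00. The small clamp loader subunits ran from -0.09 (RFC2) through 0.48 (RFC5) and 0.86 (RFC4) to 1.18 (RFC3), with no overlap for RFC3. FEN1, the flap nuclease, was at 0.28 and LIG1, the ligase that joins Okazaki fragments, at 0.97, both with overlap.

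Differences had opposite signs among the subunits of 1 complex. RPA1, RPA2 and RPA3 form the trimer that coats single-stranded DNA. RPA1 had 23.3, 24.1 and 51.0 TPM in siEIF3G polysomal RNA, against 17.2, 9.26 and 3.60 TPM in siCtrl polysomal RNA (log2 difference 1.73, SE 0.66). RPA2 had 89.4, 92.9 and 109 TPM, against 97.6, 59.4 and 48.4 TPM in siCtrl (log2 difference 0.56, SE 0.41). RPA3 had 10.7, 13.1 and 17.2 TPM, against 16.3, 20.2 and 23.2 TPM in siCtrl (log2 difference -0.52, SE 0.32). RPA1 groups were apart, with siEIF3G above, while RPA2 and RPA3 overlapped. In DNA polymerase delta, POLD2, the accessory subunit, had 524, 526 and 292 TPM in siEIF3G polysomal RNA, against 575, 675 and 677 TPM in siCtrl polysomal RNA (log2 difference -0.57, SE 0.29), with all 3 siEIF3G libraries lower, while the POLD1 value above was positive. The adjusted p was 0.65 or above for each of these genes, and the differences between subunits were not tested.

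RRM1 and TK1 stood at opposite ends of nucleotide supply. RRM1, the large subunit of ribonucleotide reductase, had 8.73, 12.7 and 20.6 TPM in siEIF3G polysomal RNA, against 5.54, 5.86 and 2.20 TPM in siCtrl polysomal RNA (log2 difference 1.44, SE 0.70). TK1 had 716, 690.5 and 565 TPM in siEIF3G polysomal RNA, against 949, 985 and 831 TPM in siCtrl polysomal RNA (log2 difference -0.49, SE 0.23). Neither gene overlapped between groups. Its input value of -0.45 and polysomal value of -0.49 place TK1 lower in siEIF3G by a like amount in both fractions, with neither past the threshold. RRM2 had 57.1, 44.7 and 80.5 TPM in siEIF3G polysomal RNA, against 63.4, 45.3 and 21.0 TPM in siCtrl polysomal RNA (log2 difference 0.57, SE 0.59). TYMS, thymidylate synthase, had a difference of 0.09 (SE 0.39); it lies across ENOSF1 in the opposite orientation, and whether reads were assigned by strand is not given in the sources used here.

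Among the regulators, E2F1 and CDK4 lay lower in siEIF3G. E2F1, the transcription factor that drives many of these promoters, had 95.4, 99.97 and 58.8 TPM in siEIF3G polysomal RNA, against 109.9, 139 and 137 TPM in siCtrl polysomal RNA (log2 difference -0.63, SE 0.28, adjusted p = 0.65). CDK4, the kinase partner of D-type cyclins, had 529, 438 and 406 TPM in siEIF3G polysomal RNA, against 544, 642 and 696 TPM in siCtrl polysomal RNA (log2 difference -0.45, SE 0.23). Neither gene overlapped between groups, yet E2F1 was at -0.38 and CDK4 at -0.37 without the 3 libraries that stood apart. CCNE2 had 2.92, 3.72 and 2.54 TPM in siEIF3G polysomal RNA, against 2.12, 6.14 and 2.23 TPM in siCtrl polysomal RNA. CCND1, cyclin D1, was at 0.82 (SE 0.62), CDK2 at 0.54 (SE 0.41) and CCNE1, cyclin E1, at -0.23 (SE 0.38), all with overlapping groups.

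The interaction of siRNA and fraction asks whether knockdown changed the polysomal level relative to the input level, here called polysome loading. It was positive for 41 of the 49 genes (83.67%, against 73.87% of all tested genes). The median was 0.79, beside 0.38 over all tested genes. With size factors 35 were positive, beside 47.1% of all tested genes, and with quantile normalization 37, beside 49.3%. Leaving out single libraries moved the median from 0.39 (without siEIF3G input 2, beside 0.16 over all tested genes) and 0.42 (without siCtrl input 3, beside 0.12) through 0.53 (without siCtrl polysomal 3, beside 0.29) to 1.27 (without siCtrl input 1, beside 0.80). The largest values belonged to MCM3 (1.83, SE 0.95), MCM6 (1.79, SE 0.92) and RPA1 (1.70, SE 0.93), and the lowest to POLD2 (-0.46, SE 0.42), RPA3 (-0.46, SE 0.45) and CDK4 (-0.42, SE 0.32). None passed an adjusted p of 0.05 (limma, lowest 0.91), where 0% of all tested genes did. MCM2 (1.32, SE 0.58) was the member with an unadjusted p under 0.05, against 0.179% of all tested genes. That count was 22 without siCtrl input 1 (2274 genes in all), 11 without siCtrl polysomal 1 (165 genes in all), 3 without siEIF3G input 3 and 0 or 1 without any other library. With the axis term, 16 members were called higher (32.7%, against 18% of all tested genes), among them MCM3, MCM4, MCM6, RPA1, RRM1 and POLA1.

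Polysomal against input RNA within a treatment shows how each mRNA was distributed before the knockdown contrast is taken. In siEIF3G cells TK1 was the member called: its polysomal levels of 716, 690.5 and 565 TPM, against 231, 348 and 210 TPM in input, gave a log2 difference of 1.34 (SE 0.23, adjusted p = 0.00885). The call was lost without siEIF3G polysomal 1, siEIF3G polysomal 2 or siEIF3G input 1 (difference 1.202 to 1.563 with any single library left out). It was 1.67 without the 3 libraries that stood apart and not called with size factors (1.94, adjusted p = 0.097). Among all tested genes, 1.81% were called higher in polysomal RNA and 1.33% lower, where no member was. Groups did not overlap for 7 members upwards (14.3%, against 9.4% of all tested genes), namely CDC45, GINS2, MCM2, MCM5, MCM7, POLD1 and TK1. They did not overlap for 5 downwards (10.2%, against 12.7%), namely CCNE1, GINS1, GINS4, MCM4 and RPA3. Without the 3 libraries that stood apart, 5 members were called higher (10.2%, against 16.4%) and 27 lower (55.1%, against 54.8%), so the members' share lay near or under that of all genes.

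In siEIF3G cells the uncalled members with the largest differences included MCM subunits at both ends. MCM7 was at 1.33 (SE 0.44, adjusted p = 0.12), from the 753, 1382 and 828 TPM in polysomal RNA against 310, 343 and 509 TPM in input. MCM5 was at 1.16 (SE 0.37, adjusted p = 0.11). At the other end, POLA1 had 14.1, 2.99 and 13.1 TPM in input and was at -1.38 (SE 0.70), and MCM4 had 71.5, 39.3 and 78.2 TPM in input and was at -1.38 (SE 0.57). GINS1, part of the GINS complex, had 5.57, 2.40 and 8.04 TPM in polysomal RNA, against 12.6, 9.57 and 15.7 TPM in input (-1.19, SE 0.48).

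In siCtrl cells 15 members were called lower in polysomal than in input RNA (30.6%, against 28.9% of all tested genes) and TK1 was called higher (2.04%, against 7.98%). TK1 had 949, 985 and 831 TPM in polysomal RNA, against 394, 370.3 and 294 TPM in input (log2 difference 1.39, SE 0.23, adjusted p = 0.0062). The 15 were ORC1, MCM3, MCM4, MCM6, MCM10, GINS1, GINS4, POLA1, PRIM1, PRIM2, POLE2, PCNA, RFC1, RPA1 and RRM1. MCM4 fell to 13.2, 11.1 and 3.55 TPM in polysomal RNA, against 30.5, 103 and 133 TPM in input (log2 difference -3.05, SE 0.57, adjusted p = 0.00924). POLA1 fell to 0.64, 1.08 and 0.24 TPM in polysomal RNA, against 2.06, 12.8 and 18.7 TPM in input (log2 difference -2.54, SE 0.70, adjusted p = 0.0322). Groups did not overlap for either gene. RFC1 (-2.45, adjusted p = 0.0422), MCM6 (-2.35, adjusted p = 0.0319) and RRM1 (-2.19, adjusted p = 0.0407) followed. RFC1 had 5.74, 38.6 and 56.8 TPM in siCtrl input, MCM6 had 11.1, 45.2 and 69.0 TPM, and RRM1 had 6.61, 33.5 and 51.4 TPM, in each case lowest in siCtrl input 1.

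How many members were called in siCtrl cells moved with the scaling and with single libraries. The median difference was -1.14 beside -0.96 over all tested genes as deposited, and size factors brought both near 0 (0.01 and -0.04). With size factors 7 members were called lower (14.3%, against 16.2% of all tested genes) and 11 higher (22.4%, against 26.7%). With quantile normalization 10 were called lower (20.4%, against 11.7%) and 2 higher (4.08%, against 15.6%). Without the 3 libraries that stood apart, 33 were called lower (67.3%, against 61.8%) and 2 higher (4.08%, against 13.3%). Of the 16 calls as deposited, 8 were also called with size factors, 10 with quantile normalization and 16 without those libraries. MCM4, MCM6, MCM10, POLA1, RFC1 and RRM1 were called lower, and TK1 higher, under all of these settings. Leaving out siCtrl input 2 ended all 15 calls lower (MCM4 then had an adjusted p of 0.0542). Genes called lower in all then numbered 57, against 3066 as deposited. Leaving out siCtrl polysomal 2, siCtrl polysomal 3 or siCtrl input 3 left 1 member, with 82, 116 and 84 genes in all. Without siCtrl polysomal 1 there were 2, with 116 genes in all. Leaving out siEIF3G polysomal 1 or 2, which enter through the shared spread, left 4 and 6 members, with 691 and 998 genes in all. Leaving out siEIF3G input 2 gave 23 (46.9% of members, against 45.5% of all tested genes) and leaving out siCtrl input 1 gave 31 (63.3%, against 58.8%), while TK1 was called higher in each case. Groups did not overlap upwards for 2 members, TK1 and CDK4 (4.08%, against 16.9% of all tested genes), and downwards for 10 (20.4%, against 28.9%).

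CDK4 and CDT1 had the next largest positive differences in siCtrl cells. CDK4 had 544, 642 and 696 TPM in polysomal RNA, against 493, 422 and 354 TPM in input (0.57, SE 0.23, adjusted p = 0.0562). CDT1 had 228, 164 and 129 TPM in polysomal RNA, against 139, 125 and 101 TPM in input (0.48, SE 0.29). E2F1 had 109.9, 139 and 137 TPM in polysomal RNA, against 147, 119 and 93.0 TPM in input (0.12, SE 0.28). Of the 49 signs, 14 changed with size factors in siCtrl cells and 22 in siEIF3G cells. RPA2 was at -0.22 (SE 0.41), from 97.6, 59.4 and 48.4 TPM in polysomal RNA against 39.9, 91.5 and 122 TPM in input, and at 0.94 with size factors (adjusted p = 0.0412). PCNA had 108, 241 and 327 TPM in input and was at -1.14 (SE 0.40, adjusted p = 0.0453). It was at 0.028 with size factors and at -1.28 with quantile normalization (adjusted p = 0.029), so its value depends on which scaling is used. RFC2 was at -0.07 (SE 0.25), and at 1.10 with size factors (adjusted p = 0.0472).

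**Figure D4:**
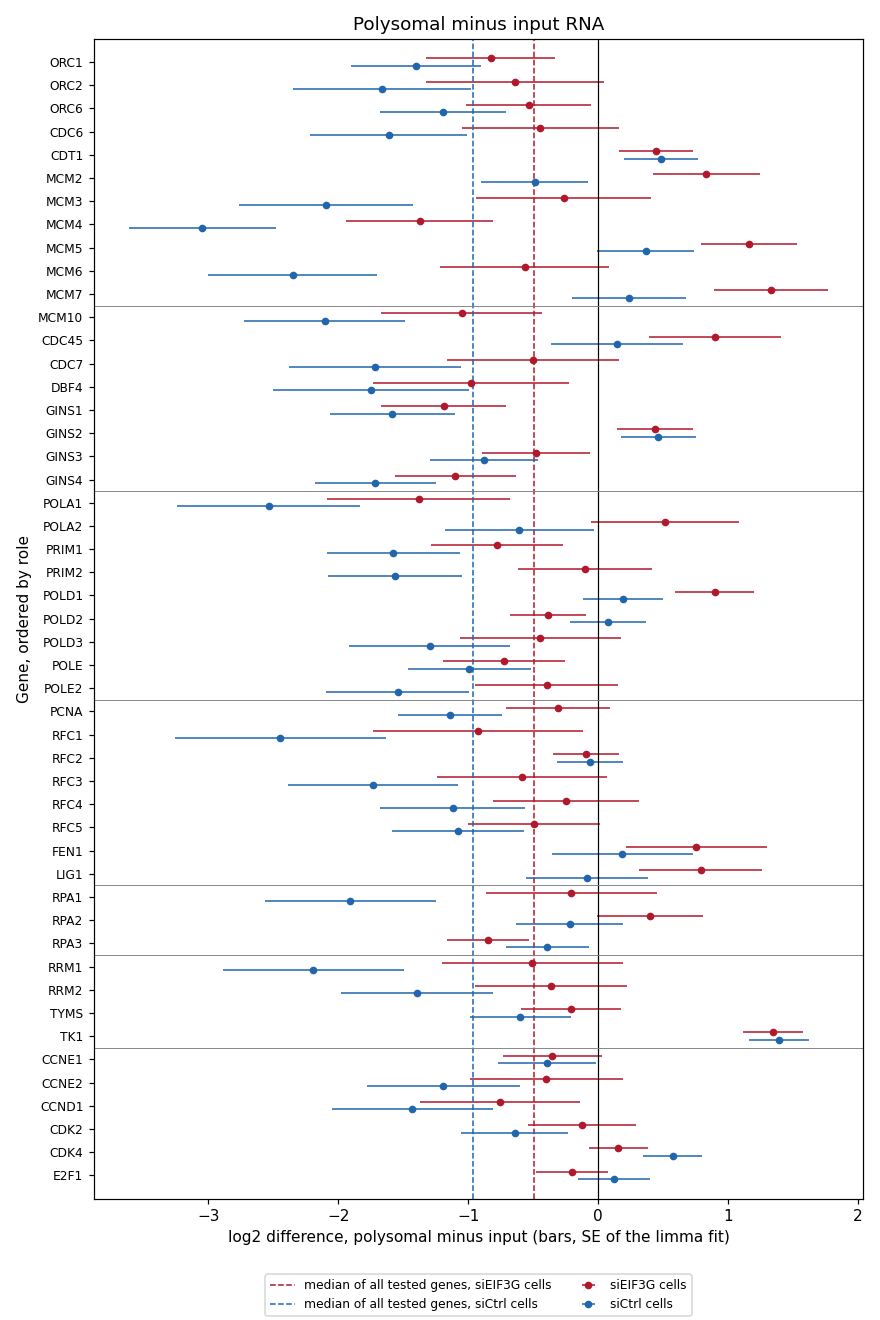
Log2 difference on the log2(TPM + 1) scale between polysomal and input RNA for each of the 49 genes in siEIF3G cells (red) and siCtrl cells (blue), with bars for the SE of the limma fit and dashed lines at the medians of all tested genes (-0.49 and -0.96). TK1 sits at 1.34 and 1.39, to the right of every other member, with MCM7 in siEIF3G cells close to it at 1.33; MCM4 in siCtrl cells lies farthest left, at -3.05.

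The MCM hexamer, whose subunits are needed in equal number, split by the difference between polysomal and input RNA. MCM2, MCM5 and MCM7 had polysomal minus input differences of 0.83, 1.16 and 1.33 in siEIF3G cells and of -0.49, 0.36 and 0.23 in siCtrl cells. MCM3, MCM4 and MCM6 had differences of -0.27, -1.38 and -0.57 in siEIF3G cells and of -2.10, -3.05 and -2.35 in siCtrl cells. With size factors, MCM2 in siCtrl cells was at 0.67, and MCM3 and MCM6 in siEIF3G cells were at 0.32 and 0.019. With quantile normalization these 3 values stayed negative, at -0.43, -0.30 and -0.44, so their signs depend on which scaling is used. A ratio of 2 mRNAs within a library does not depend on how libraries are scaled to each other, and these pairs were picked after their values were seen, so no test is given. The TPM ratio of MCM7 to MCM6 was 42.8, 82.3 and 26.1 in siEIF3G polysomal RNA and 6.85, 23.9 and 10.5 in siEIF3G input. It was 113, 58.0 and 99.3 in siCtrl polysomal RNA and 26.2, 10.4 and 7.11 in siCtrl input. Polysomal libraries lay above input libraries of the same siRNA throughout, and the highest input library of each siRNA was one that stood apart. The ratio of MCM5 to MCM3 was 5.84, 8.09 and 3.08 in siEIF3G polysomal RNA, against 6.71, 13.2 and 12.96 in siCtrl polysomal RNA, and these overlapped. The ratio of TK1 to RRM1 was 82.0, 54.5 and 27.4 in siEIF3G polysomal RNA, against 171, 168 and 378 in siCtrl polysomal RNA, with siEIF3G libraries all lower; in input it was 8.24, 46.2 and 6.52 in siEIF3G cells, against 59.6, 11.1 and 5.72 in siCtrl cells, with overlap.

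**Figure D5:**
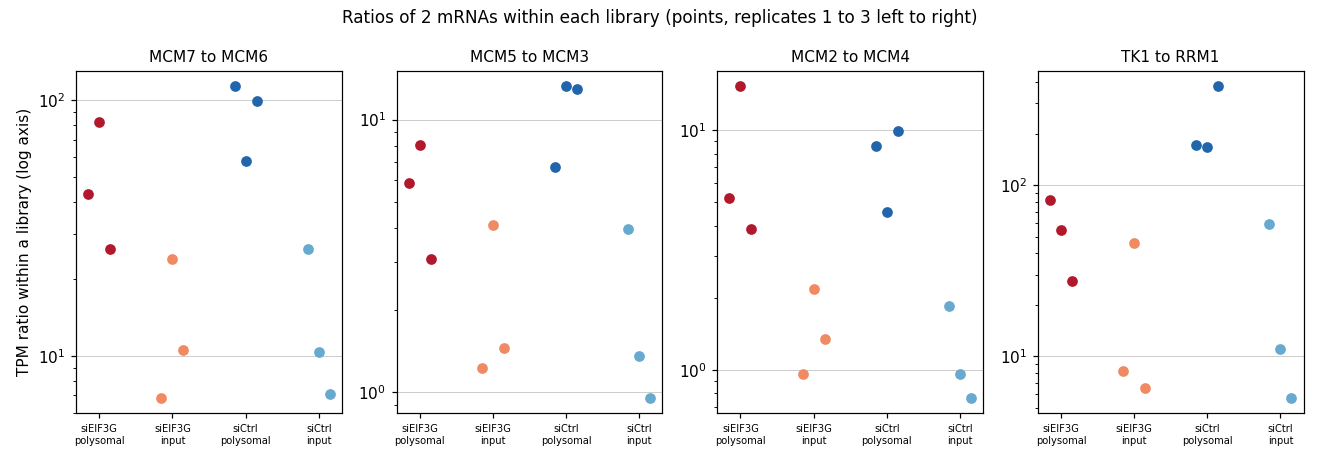
TPM ratio of 2 mRNAs within each library (log axes) for MCM7 to MCM6, MCM5 to MCM3, MCM2 to MCM4 and TK1 to RRM1, by group. For MCM7 to MCM6 the polysomal libraries reach 113 and the input libraries do not exceed 26.2; for TK1 to RRM1 the siCtrl polysomal libraries are highest, at 168 to 378.

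Across genes, longer genes tended to have lower polysomal minus input differences in both treatments. Spearman's rho was taken between the log10 genomic span of a gene (RefSeq, GRCh38.p14) and that difference. In siCtrl cells it was -0.48 over the 49 members and -0.45 over the 10465 tested genes with a span. In siEIF3G cells it was -0.30 and -0.36. The GC content of the promoter window had a rho of 0.44 over 40 members and of 0.07 over 8722 genes in siCtrl cells. Mean abundance over the libraries had a rho of 0.59 over the 49 members and of 0.34 over all 10605, also with the difference in siCtrl cells. These are descriptions across genes that share the same 6 libraries of a treatment, and genes are not independent replicates.

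Beyond the 49, a list of 61 other replication and G1/S genes had 60 tested members. In polysomal RNA none of the 60 was called between siEIF3G and siCtrl. Differences were positive for 45 (75%, against 72.65% of all tested genes), with a median of 0.54, beside 0.33 over all tested genes. The largest were TOP1, a topoisomerase that relieves supercoils (1.60, SE 0.79), and UHRF1, which guides maintenance methylation (1.497, SE 0.61). The lowest were CDKN1A, the p21 inhibitor of cyclin-dependent kinases (-0.92, SE 0.26), and ASF1B, a histone chaperone (-0.82, SE 0.32). In input RNA 46 of the 60 were negative and 14 positive (23.3%, against 42.95% of all tested genes). The median was -0.23, beside -0.05 over all tested genes. Differences ran from E2F7 (-0.77) and TFDP1 (-0.61) to E2F5 (0.48) and CAD (0.50), with none called. Polysome loading was positive for 50 of the 60 (83.3%, against 73.87% of all tested genes). Its median was 0.70, beside 0.38 over all tested genes. Values ran from CDKN1A (-0.76) and E2F4 (-0.54) to MTBP (1.56) and TOP1 (1.66). RNASEH2A, which removes RNA primers and misplaced ribonucleotides, was called higher in polysomal than in input RNA both in siEIF3G cells (1.197, adjusted p = 0.0129) and in siCtrl cells (1.46, adjusted p = 0.0031). POLE3, a histone-fold subunit of polymerase epsilon, was called lower in siEIF3G cells (-1.48, adjusted p = 0.0494), where TFDP1 was at -1.48 (adjusted p = 0.14) and CCND3 at 1.06 (adjusted p = 0.0829). Over all tested genes, 1.81% were called higher and 1.33% lower in that comparison. In siCtrl cells 27 of the 60 were called lower (45%, against 28.9% of all tested genes), led by TOP1 (-2.93, adjusted p = 0.0306) and CLSPN, a checkpoint mediator at the fork (-2.56, adjusted p = 0.0315), and 5 were called higher (8.33%, against 7.98%), led by RNASEH2A and CCND3 (1.27, adjusted p = 0.0232). For the 60 genes these counts are given only as deposited. Over all tested genes, calls lower in siCtrl cells numbered 57 without siCtrl input 2, against 3066 as deposited. With size factors 16.2% of all tested genes were called lower.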

How the data were processed

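Gene expression was measured by RNA sequencing in 12 libraries (4 groups of 3). The authors deposited TPM per gene and library; RSEM 1.3.1 and the genome build GRCh38.p13 were used, per the submitters' processing notes. For the aligner, annotation, strand setting and filters the sources used here give nothing. TPM are shares that sum to 1000000 in each library, so a change of all mRNAs alike is not seen and depth is unknown.

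Values were tested as log2(TPM + 1), which understates changes of low genes, without rescaling. A minimum mean of 1 TPM was required (10605 tested, 5567 set aside). A model with 4 group means was fitted to all of them with limma 3.58.1 in R 4.3.3 (eBayes with trend, 8 residual degrees of freedom, 7 with the axis term). P-values are two-sided, with Benjamini-Hochberg adjustment across all 10605 genes in each of 5 comparisons and a threshold of 0.05; "called" means past it. The procedure was tested on simulated data with a spread drawn independently for each gene and library. That simulation lacks the main axis of deviation seen in these libraries, so it does not show how calls hold under it. Alternatives were pseudocounts of 0.1 and 5, no filter or a minimum of 5 TPM, size factors, quantile normalization, a total without ribosomal protein genes, robust or untrended moderation, fitting only the 2 groups of a comparison, a block for the replicate number, the axis term, and libraries left out.

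Members and lists were chosen with earlier results of these data known. Values in every library are given for the most abundant member of each role, for called members (the 5 largest where over 10) and for the 3 largest differences each way among members with a mean of at least 5 TPM; MCM2 and the genes named only by a count were added after their values were seen. From the list of other genes, the 2 largest differences each way are named. CDKN2A, CDKN2C and CDKN1B were added outside that rule, as inhibitors of the G1/S kinases. Gene positions and promoters come from RefSeq (GRCh38.p14), where all 49 symbols matched for positions and 40 for promoters.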

Additional observations from a re-analysis of the deposited data

How the results depend on the processing

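The members' results that changed were mostly counts of calls between polysomal and input RNA. In siCtrl cells, 15 members were called lower as deposited; this was 4 with a pseudocount of 5 (8.16% of members, against 7.88% of all genes), 1 with no filter (2.04%, against 4.32%), 7 with size factors (14.3%, against 16.2%), 24 with a total without ribosomal protein genes (49%, against 46%), 1 with only the groups compared (2.04%, against 2.25%), 31 with the axis term (63.3%, against 59.8%) and 33 without the 3 libraries that stood apart (67.3%, against 61.8%), so the count moved along with that of all genes. Leaving out single libraries gave 0 (without siCtrl input 2, 57 genes in all) to 31 (without siCtrl input 1, 6236 genes in all). The 1 call higher became 11 with size factors (22.4% of members, against 26.7% of all genes) and 2 with quantile normalization (4.08%, against 15.6%). It became 3 with the axis term (6.12%, against 14.4%), 2 without the 3 libraries (4.08%, against 13.3%), and 1 to 2 with single libraries left out. In siEIF3G cells, the 1 call higher became 0 with size factors or only the groups compared. It became 4 with the axis term (8.16%, against 11.3% of all genes), 5 without the 3 libraries (10.2%, against 16.4%), and 0 to 2 with single libraries left out. TK1 was lost without siEIF3G polysomal 1, siEIF3G polysomal 2 or siEIF3G input 1. Calls lower became 20 with the axis term (40.8%, against 50% of all genes) and 27 without the 3 libraries (55.1%, against 54.8%). Between siEIF3G and siCtrl in polysomal RNA, the axis term gave 25 calls higher (51%, against 33% of all genes) and 3 lower (6.12%, against 3.38%). It gave 16 calls higher for polysome loading (32.7%, against 18%), against 0 as deposited for each. Members with an unadjusted p under 0.05 in polysomal RNA numbered 24 with only the groups compared (2125 genes in all). They numbered 37 with the axis term (75.5%, against 47.8%), against 10 as deposited (20.4%, against 6.69%).

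The members' median relative to all genes moved with the filter, since low genes then enter the median of all genes: 0.53 in polysomal RNA and 0.64 for loading with no filter, and, for polysomal against input RNA, -0.20 in siEIF3G and -0.83 in siCtrl cells. It was -0.13 in siEIF3G and -0.41 in siCtrl cells with quantile normalization. In siCtrl cells, where it was -0.18 as deposited, it was 0.039 and -0.40 with pseudocounts of 0.1 and 5, -0.52 with a minimum of 5 TPM and 0.051 with size factors. With size factors in siCtrl cells, 14 of 49 signs changed, of which 3 belong to genes called under either scaling: PCNA (0.028), RPA2 (0.94) and RFC2 (1.10); the causes of these changes were not tested. EIF3G in input RNA was at -3.98 with size factors (adjusted p = 0.0657). The members given by library had 2682 values with the call kept (uncalled values that changed sign included), 74 newly called, 94 no longer called and 2 reversed. Over all 49 members and 5 comparisons (245 values), 50 signs changed with size factors, 27 with quantile normalization, 14 with a total without ribosomal protein genes and 24 without the 3 libraries.

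Whether same-numbered libraries share a lysate is not given in the labels, and the main model treated all libraries as independent. Correlations of same-numbered deviations from the group means ran from -0.69 to 0.71. Differently numbered libraries were not set beside them, so these values do not decide whether the numbers pair the libraries. The replicate block joins libraries of the same number across both siRNAs and fractions. With the replicate block, 7 members were called lower in siCtrl cells (1452 genes in all), against 15 (3066 genes in all). TK1 was called higher in both treatments, and no other count of called members moved. Limits are 3 libraries a group, an unknown depth, and values that are shares of a library.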

Other observations

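The inhibitors that restrain the G1/S kinases were also measured. CDKN1A (p21) had 98.7, 94.2 and 74.2 TPM in siEIF3G polysomal RNA, against 136, 175 and 201 TPM in siCtrl polysomal RNA (limma log2 difference -0.92, SE 0.26, unadjusted p = 0.00358, adjusted p = 0.65), with all 3 siEIF3G libraries lower. In that comparison 6.69% of all tested genes had an unadjusted p under 0.05, and 7.61% were separated downwards. In input it had 59.7, 93.0 and 94.5 TPM in siEIF3G cells, against 89.8, 104 and 78.4 TPM in siCtrl cells, with overlap. CDKN2A had 352, 318 and 332 TPM in siEIF3G polysomal RNA, against 353, 424 and 504 TPM in siCtrl polysomal RNA (-0.34, SE 0.22). CDKN2C had 15.6, 17.9 and 15.4 TPM in siEIF3G polysomal RNA, against 21.8, 18.2 and 22.3 TPM in siCtrl polysomal RNA (-0.33, SE 0.31). Groups of both genes did not overlap, but the gap was narrow. The nearest libraries had 352 against 353 TPM for CDKN2A and 17.9 against 18.2 TPM for CDKN2C. CDKN1B (p27) had 9.76, 5.28 and 16.3 TPM in siEIF3G polysomal RNA, against 4.67, 7.86 and 4.27 TPM in siCtrl polysomal RNA (0.71, SE 0.58), with overlap. None of these 4 passed the adjusted threshold between siEIF3G and siCtrl in either fraction.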
